A study of Mus musculus with 19 samples.

Results

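The 9 genes described here were measured in 19 bulk RNA-seq libraries of sorted mouse lung tumor cells: Ackr3, which encodes an atypical chemokine receptor, and 8 chemokine ligand genes, Cxcl12, Cxcl1, Cxcl2, Cxcl5, Cxcl14, Cxcl16, Cx3cl1 and Ccl20. These 9 of the 53558 genes listed were chosen by symbol, with their counts in the virus groups and in the series named in the library titles already known, so their own values are given as a description and carry no p-value. The tumors arose in mice of both sexes and mixed genetic background that carried the alleles R26LSL-tdTomato and H11LSL-Cas9 in every group. A lentivirus given into the trachea delivered Cre, which switches on the tdTomato reporter and Cas9 in the infected cells, together with guide RNAs. In the sgInert group the guides had no tumor suppressor target (sgNeo1, sgNT and sgNeo2, 7 libraries), in the sgCebpa/b/d group they targeted the C/EBP transcription factor genes Cebpa, Cebpb and Cebpd (7 libraries), and in the sgLkb1 group they targeted Lkb1, the kinase gene listed as Stk11 (5 libraries). Tumors grew for 17 weeks, and live cells negative for CD45, CD31, F4/80 and Ter119 were sorted, a gate meant to leave out blood and endothelial cells. A gate on tdTomato, meant to keep neoplastic cells only, is described for other experiments of the study. It is not given for these libraries in the sources used here. In single-cell data of cells sorted with that gate, the paper still removed putative fibroblasts and endothelial cells. Cas9 edits vary from cell to cell, and a library can mix edited genotypes.

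Chemokines are small secreted or membrane-anchored proteins that direct the movement of leukocytes through receptors coupled to G proteins. ACKR3 binds CXCL12 but does not signal through G proteins: it takes the ligand up and removes it, while CXCR4 is the signalling receptor for the same ligand. CXCL1, CXCL2 and CXCL5 attract neutrophils through CXCR2, and their genes are induced by NF-kB in inflamed epithelium.

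The libraries held between 2760722 and 9944131 counts (median 6028918). The titles carry ZR or MT with an animal number, or no animal number, and the labels do not say what these stand for. The sgInert group had 4 ZR and 3 MT libraries, the sgCebpa/b/d group 4 MT and 3 without a number, and the sgLkb1 group 3 MT and 2 without a number. In the sgCebpa/b/d group all MT libraries were female and all libraries without a number male, so series and sex cannot be told apart there. Stk11 was lower in all sgLkb1 than in all sgInert libraries (log2 fold change −1.24 ± 0.17 SE, adjusted p = 0.000107, edgeR), whereas Cebpa was higher in the sgCebpa/b/d libraries (0.73 ± 0.14 SE, adjusted p = 0.00148, edgeR); an edited gene is still transcribed, so the RNA level is no check of the cut. All 8 epithelial markers, among them Epcam, Cdh1 and Nkx2-1, had counts in all 19 libraries. Markers of other cell types differed with the series: the summed TPM (a level per transcript length and library size) of 20 immune markers in libraries without a number was 787 to 1188 (sgCebpa/b/d) or 245 to 542 (sgLkb1), against 7.42 to 38.6 in all MT and 28.1 to 292 in ZR libraries. The immune sums weigh 1 gene heavily: Chil3 reached 972 TPM, and no other of the 20 markers passed 61.5 TPM (S100a9). The summed TPM of the 8 epithelial markers in sgCebpa/b/d was 23698 to 35524 in libraries without a number and 35177 to 41415 in MT libraries. In sgLkb1 it was 35851 to 36445 and 31248 to 41396, and in sgInert 32387 to 47256. These sums weigh Sftpc heavily, at 20131 to 41527 TPM. In bulk libraries, fewer cells of a type and less RNA per cell cannot be told apart.

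Of the 9 members 7 have a promoter in the RefSeq table for GRCm38.p6, running from 250 bases before to 50 after the start of the gene. These were searched on both strands for the kappa-B consensus of NF-kB, for the C/EBP half-palindrome TTGCNNAA, for the AP-1 motif TGANTCA and for TGACG, the core of the cAMP response element. The 4 stretches below are shown because each holds a kappa-B or C/EBP match (in capitals) and because the genes belong to the sets whose values are compared further on. All 4 are on the plus strand: Ackr3 at chr1:90203850-90203979, Cxcl1 at chr5:90891111-90891240, Cxcl2 at chr5:90903741-90903870 and Ccl20 at chr1:83116636-83116765.
Ackr3: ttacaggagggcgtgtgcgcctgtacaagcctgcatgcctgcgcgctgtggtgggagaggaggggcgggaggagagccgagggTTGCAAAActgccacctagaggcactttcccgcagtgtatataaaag
Cxcl1: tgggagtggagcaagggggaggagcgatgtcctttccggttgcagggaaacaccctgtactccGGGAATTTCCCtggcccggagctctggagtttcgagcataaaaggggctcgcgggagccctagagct
Cxcl2: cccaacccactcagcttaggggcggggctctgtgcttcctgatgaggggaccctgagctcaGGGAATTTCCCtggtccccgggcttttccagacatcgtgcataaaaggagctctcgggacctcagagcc
Ccl20: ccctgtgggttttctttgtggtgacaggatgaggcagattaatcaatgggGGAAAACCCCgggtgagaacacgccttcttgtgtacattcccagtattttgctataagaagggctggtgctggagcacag

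The capitals in Cxcl1 and Cxcl2 are the same 11 letters, GGGAATTTCCC, in which a kappa-B match on one strand overlaps a match on the other, and the Ccl20 match lies on the minus strand. A kappa-B match occurred in 4.51% of all 32851 promoters of this length, a TTGCNNAA match, as in Ackr3, in 10.8%, a TGANTCA match in 7.81% and a TGACG match in 20.8%. TGACG was also found in the windows of Cxcl12 and Cxcl1, no member window held TGANTCA, and those of Cxcl14 and Cx3cl1 held none of the 4. A match is a description of letters in this window.

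On the TPM scale, Cxcl1 had the highest level of the 9 genes, with a median of 55.4 TPM over the 19 libraries (range 13.1 to 178). Cxcl16 followed with a median of 24.8 TPM (11.2 to 49.8) and Cxcl2 with 16.4 TPM (0.50 to 47.5). Cxcl12 (4.57 TPM) and Cx3cl1 (4.38 TPM) had nearly the same median, and their ranges of 0.17 to 18.5 and 1.81 to 9.31 TPM overlapped. Cxcl5 (2.47 TPM), Ackr3 (2.16 TPM), Cxcl14 (0.98 TPM) and Ccl20 (0.40 TPM) were lowest, and the ranges of these 4 overlapped too. Ackr3 ran from 0 to 17.1 TPM. The edgeR filter on low counts kept 13986 genes, among them 8 of the 9 members, and Ccl20 did not pass it.

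**Figure D1:**
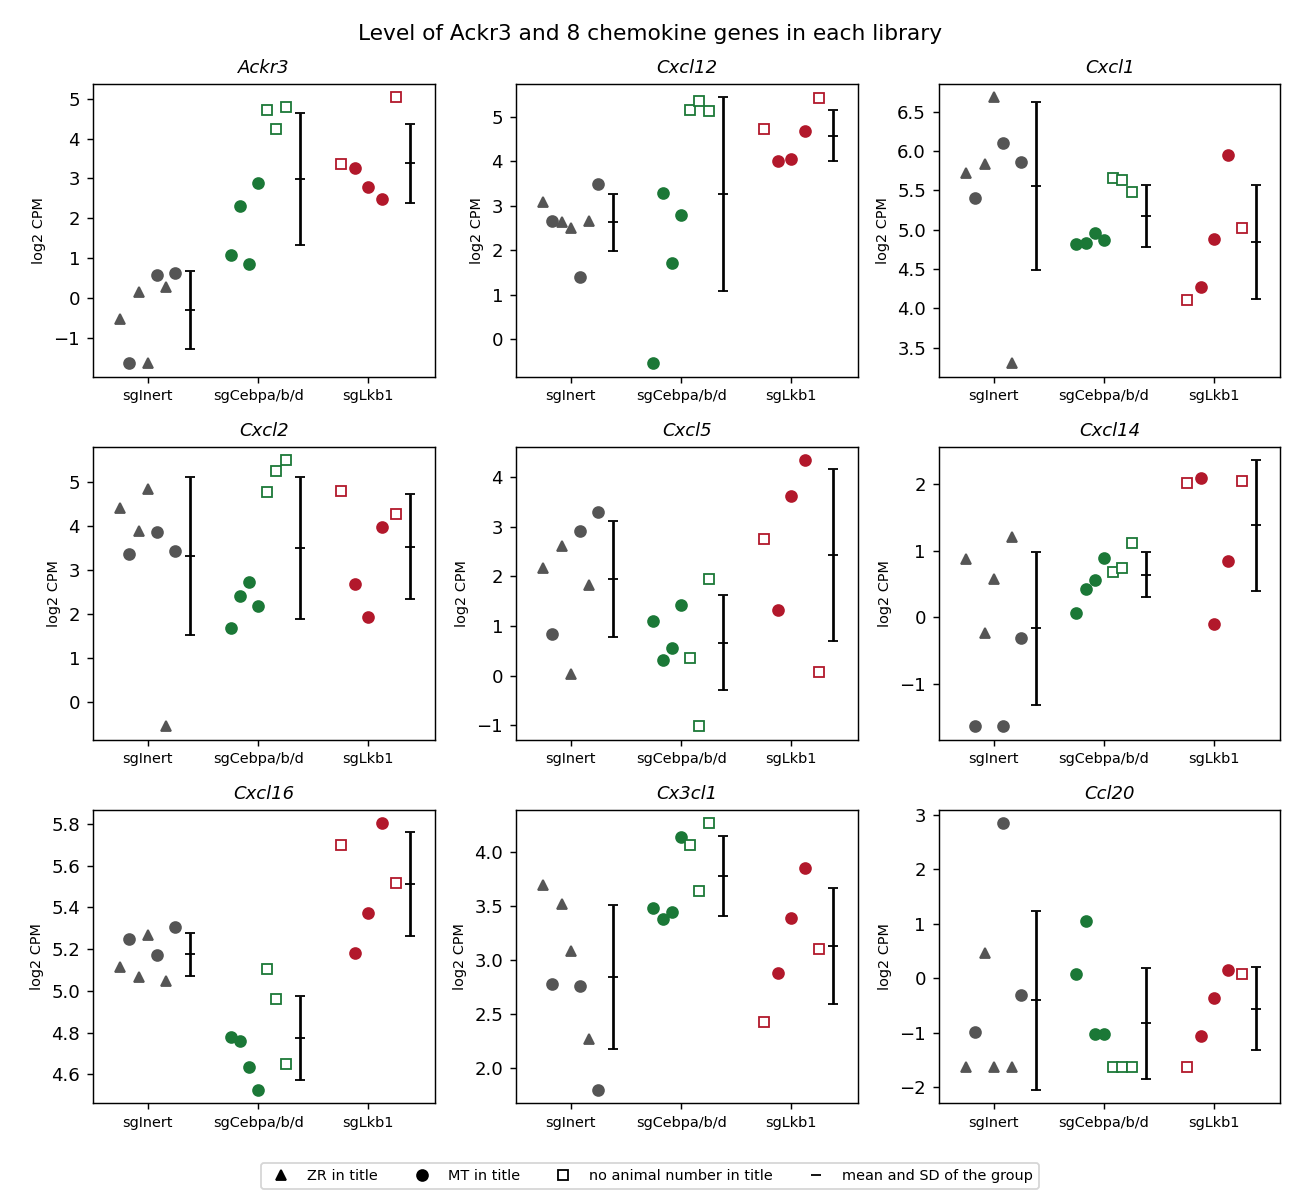
Log2 CPM (counts relative to library size) of each member in each library, by virus group on the x axis; triangles are ZR, filled circles MT and open squares libraries without an animal number, and bars give the group mean and SD. Ackr3 in sgInert libraries lies below every library of both targeted groups, and the open squares of Ackr3, Cxcl12 and Cxcl2 in sgCebpa/b/d lie above the filled circles.

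Ackr3 was close to undetected in sgInert libraries and higher on average in both targeted groups. In sgInert the CPM (counts relative to library size, scaled with TMM factors) ran from 0 through a median of 0.795 to 1.22, from 0 to 9 counts per library. The 2 libraries at 0, replicates 2 and 4, allow up to 0.545 and 0.697 CPM at 3 counts, a limit that covers counting error only. In sgCebpa/b/d the CPM ran from 1.48 through a median of 7.12 to 27.4, and in sgLkb1 the 5 values were 9.92, 9.25, 6.52, 5.31 and 32.6. On the CPM scale no sgInert library reached the lowest library of either targeted group, while the targeted groups overlapped each other. The gap to sgCebpa/b/d was small: 5 counts in sgInert replicate 7 (1.22 CPM) against 9 in sgCebpa/b/d replicate 3 (1.48 CPM). On the TPM scale sgInert and sgCebpa/b/d overlapped. There sgInert replicate 1, at 1.43 TPM, lay above sgCebpa/b/d replicates 1 and 3, at 0.86 and 0.67 TPM. Log2 CPM averaged −0.30 ± 0.98 (SD, n = 7) for sgInert, 2.98 ± 1.66 (SD, n = 7) for sgCebpa/b/d and 3.38 ± 0.99 (SD, n = 5) for sgLkb1. The sgInert mean was lowest, and the means of the targeted groups differed by less than their spread. The fitted log2 fold change was 4.23 ± 0.75 (SE) for sgCebpa/b/d and 4.25 ± 0.77 (SE) for sgLkb1, 18.8-fold and 19.04-fold. Both use the same sgInert libraries, and between the targeted groups the difference was −0.02 ± 0.64 (SE). It was −1.45 ± 0.59 (SE) with sex as a covariate, where all sgLkb1 libraries were female, and −0.86 ± 0.63 (SE) over MT libraries only. The sgLkb1 value against sgInert was 5.58 ± 0.70 (SE) with sex as a covariate.

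Within the sgCebpa/b/d group, Ackr3 fell into separate ranges by series. The 4 MT libraries had 1.81, 4.60, 1.48 and 7.12 CPM, and the 3 libraries without an animal number 25.9, 18.6 and 27.4 CPM, a difference of 2.62 ± 0.57 (SE) on the log2 scale. In sgLkb1 the libraries without a number had 9.92 and 32.6 CPM, above the MT libraries at 9.25, 6.52 and 5.31 CPM, a difference of 1.60 ± 0.64 (SE) that was 0.50 without replicate 5 and 2.22 without replicate 1. In sgInert, ZR and MT libraries overlapped (−0.58 ± 0.90 SE). With MT libraries on both sides the fold changes against sgInert were smaller, 2.26 ± 0.73 (SE) in sgCebpa/b/d and 3.10 ± 0.74 (SE) in sgLkb1. The libraries still did not overlap: sgInert MT libraries had 0 to 1.22 CPM. These standard errors count MT libraries that share an animal number as separate. The sgLkb1 value over all libraries was 3.54 without replicate 5 of that group.

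The genes whose log2 CPM followed Ackr3 most closely over the 19 libraries were Lepr, the leptin receptor gene (Pearson r = 0.94, Spearman rho = 0.95), and Fat4, an atypical cadherin gene (r = 0.92, rho = 0.89). These are descriptions over libraries that share group and series. Marker sums of other cell types moved with Ackr3 in part. Within each targeted group, the immune sums given above and Ackr3 were both highest in the unnumbered libraries. Over all groups they did not always match: sgInert replicate 3 had an immune sum of 292 TPM with Ackr3 at 0.795 CPM. The MT sgLkb1 libraries had immune sums of 22.2 to 38.6 TPM with Ackr3 at 5.31 to 9.25 CPM. The summed TPM of 10 endothelial markers, none of them at 0 in all libraries of a group and 5 of them counted in all 19, was 12.2 to 31.3 in sgInert. It was 24.1 to 46.4 in MT and 128 to 171 in unnumbered libraries of sgCebpa/b/d. The sgLkb1 group had 50.5 to 80.5 in MT and 71.3 and 131 in unnumbered libraries. Of these 10 markers, 6 were called higher in sgCebpa/b/d than in sgInert (median log2 fold change 2.08) and 1 in sgLkb1 (1.83), and against MT sgInert libraries 0 in MT sgCebpa/b/d (median −0.06) and 1 in MT sgLkb1 libraries (0.91; edgeR). The summed TPM of 10 fibroblast markers was 6.73 to 70.8 for sgInert, 36.1 to 159 for sgCebpa/b/d and 55.2 to 184 for sgLkb1, and among MT libraries 6.73 to 16.3, 36.1 to 159 and 55.2 to 142. Within sgCebpa/b/d the fibroblast sums of the series overlapped, with 105 to 133 in unnumbered libraries. Of 9 fibroblast markers tested, 3 were called higher in each targeted group (medians 1.47 and 1.70), and among MT libraries 5 in sgCebpa/b/d and 6 in sgLkb1 (3.38 and 3.32; edgeR). In sgInert MT libraries the fibroblast marker Lum was at 0. The part of any of these cell types in the Ackr3 values was not tested.

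**Figure D2:**
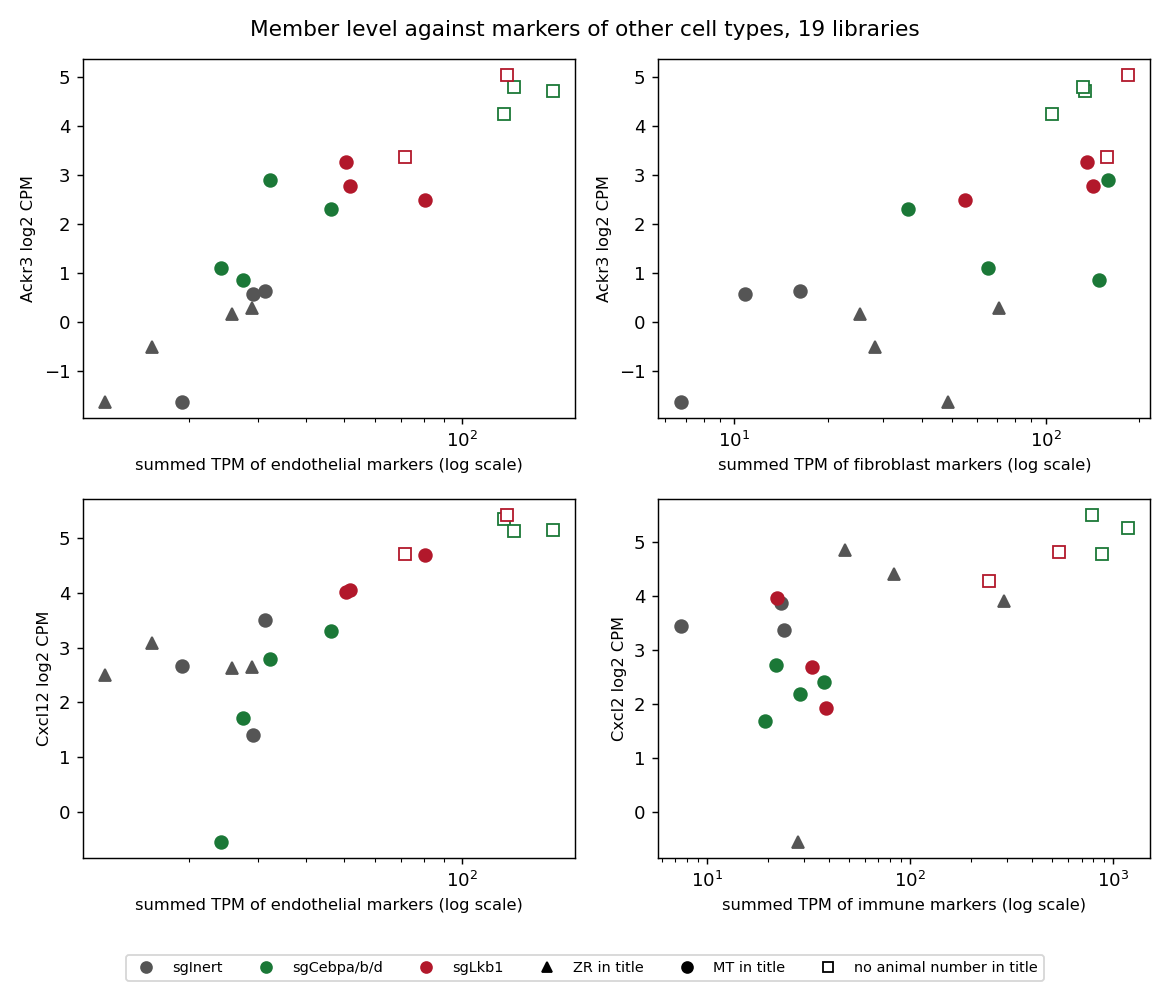
Log2 CPM of Ackr3, Cxcl12 and Cxcl2 in each of 19 libraries against the summed TPM (log scale) of marker genes of endothelial cells, fibroblasts or immune cells; colors are virus groups and shapes title series as in the key. The 3 sgCebpa/b/d libraries without an animal number (open squares) lie above the MT libraries of that group in endothelial and immune sums and in all 3 genes.

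Cxcl12, the CXCL12 ligand gene removed or sensed by ACKR3 and CXCR4, was higher in every sgLkb1 than in every sgInert library. The CPM was 2.32, 5.94 and 10.96 (lowest, median and highest) in sgInert, and 26.0, 15.8, 16.2, 25.5 and 42.5 in the 5 sgLkb1 libraries. The sgCebpa/b/d libraries spanned both, from 0.362 through 9.50 to 40.4 CPM. Log2 CPM averaged 2.63 ± 0.64 (SD, n = 7) for sgInert, 3.27 ± 2.18 (SD, n = 7) for sgCebpa/b/d and 4.58 ± 0.58 (SD, n = 5) for sgLkb1, where the middle value differed from its neighbours by less than its own spread. The fitted difference from sgInert was 2.00 ± 0.60 (SE) in sgLkb1 and 1.57 ± 0.56 (SE) in sgCebpa/b/d. Over 10 alternatives the sgLkb1 difference ranged from 1.25 to 3.11.

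The Cxcl12 values of sgCebpa/b/d separated by series. The 3 unnumbered libraries had 35.0, 40.4 and 34.6 CPM and the 4 MT libraries 0.362, 9.50, 2.97 and 6.61 CPM, 2.79 ± 0.49 (SE) apart on the log2 scale. Against MT sgInert libraries, the MT libraries of sgCebpa/b/d differed by −0.23 ± 0.52 (SE) and overlapped them, while those of sgLkb1 differed by 1.63 ± 0.53 (SE) and did not. In sgLkb1 the unnumbered libraries were 0.83 ± 0.54 (SE) above the MT libraries, and in sgInert the ZR libraries 0.03 ± 0.52 (SE) above. Enpp2, the autotaxin gene (r = 0.88, rho = 0.87), and Akap2 (r = 0.88, rho = 0.85) followed Cxcl12 most closely over the 19 libraries, and Ackr3 itself followed it with r = 0.69 and rho = 0.79. The endothelial marker sums given above were highest in the libraries with the most Cxcl12, and their part was not tested.

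Cxcr4, the signalling partner for the same ligand, had 0 or 1 count in sgInert, 0 to 4 in MT and 7 to 15 in unnumbered sgCebpa/b/d libraries, and 0 to 10 in sgLkb1, and did not pass the filter. Mif, which encodes a cytokine that also binds CXCR4, had 59 to 122 counts in sgInert and was called in neither targeted group (0.15 ± 0.13 and 0.33 ± 0.14 SE, adjusted p = 0.548 and 0.206, edgeR). Of 29 listed genes for receptor signalling and ligand handling 27 are in the files and 25 were tested. In all, 2 were called lower in sgCebpa/b/d than in sgInert: Sulf2, a heparan sulfate sulfatase gene (−1.48 ± 0.27 SE, adjusted p = 0.000781, edgeR), and Grk5, a receptor kinase gene (−1.12 ± 0.31 SE, adjusted p = 0.0198, edgeR), the latter not without sgInert replicate 4 or sgCebpa/b/d replicate 1, nor among MT libraries (−0.93 ± 0.44 SE, adjusted p = 0.279). In all, 1 was called higher in sgLkb1, Sulf1, the other sulfatase gene (2.43 ± 0.59 SE, adjusted p = 0.0166, edgeR), with 66 to 150 counts against 0 to 42 in sgInert; without sgLkb1 replicate 5 the adjusted p was 0.0548. In sgCebpa/b/d Sulf1 was at 1.47 ± 0.56 (SE, adjusted p = 0.106, edgeR). Among MT libraries 3 of the 25 were called in sgCebpa/b/d and 2 in sgLkb1, of which Sulf1, Gnai1 and Sulf2 are named here. Sulf1 was higher in both, at 3.12 ± 0.79 in sgCebpa/b/d and 3.90 ± 0.81 in sgLkb1 (SE, adjusted p = 0.02 and 0.00563, edgeR). In sgCebpa/b/d Gnai1 was higher (1.17 ± 0.23 SE, adjusted p = 0.00303, edgeR) and Sulf2 lower (−2.01 ± 0.35 SE, adjusted p = 0.00122, edgeR). These fits count MT libraries that share an animal number as separate. Between the targeted groups Sulf2 (−1.92 ± 0.28 SE, adjusted p = 0.000158) and Grk5 (−1.13 ± 0.33 SE, adjusted p = 0.0408) were called lower and the inhibitory G protein gene Gnai1 (1.37 ± 0.23 SE, adjusted p = 0.000678) higher in sgCebpa/b/d by edgeR, and leaving out any 1 of 9 libraries ended the Grk5 call (largest adjusted p 0.114). The median over the 25 genes was 0.15 in sgCebpa/b/d and 0.05 in sgLkb1, against 0.02 and −0.01 over all genes.

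A set of 3 members lies in one gene cluster of mouse chromosome 5 (mm10, GENCODE vM21), in the order Cxcl5 (90759360 to 90761624), Ppbp, Pf4, Cxcl3, Cxcl15, Cxcl1 (90891241 to 90893115) and Cxcl2 (90903871 to 90905938), all on the plus strand. Their values followed different patterns over the libraries, described in turn.

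Cxcl1 overlapped between all virus groups. Its CPM was 9.54, 56.7 and 103 (lowest, median and highest) in sgInert, 27.9, 30.8 and 50.2 in sgCebpa/b/d, and 16.8, 18.97, 29.1, 61.3 and 32.0 in sgLkb1. In that order log2 CPM averaged 5.56 ± 1.07 (SD, n = 7), 5.18 ± 0.39 (SD, n = 7) and 4.84 ± 0.73 (SD, n = 5), steps no larger than the spread of sgInert, and the fitted differences from sgInert were −0.58 ± 0.34 and −0.80 ± 0.38 (SE). In sgCebpa/b/d the unnumbered libraries, at 44.2 to 50.2 CPM, lay above the MT libraries, at 27.9 to 30.8 CPM, and the MT libraries lay below all MT sgInert libraries, at 41.9 to 68.1 CPM. Osgin1 (r = 0.77, rho = 0.63) and the pseudogene Ftl1-ps1 (r = 0.76, rho = 0.74) were its nearest genes.

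Cxcl2 overlapped between the virus groups and separated by series in sgCebpa/b/d. The CPM was 0.360, 14.2 and 28.4 (lowest, median and highest) in sgInert, 2.90, 6.26 and 44.8 in sgCebpa/b/d, and 27.7, 6.11, 3.49, 15.3 and 18.9 in sgLkb1, all overlapping. Mean log2 CPM was 3.32 ± 1.79 (SD, n = 7), 3.51 ± 1.61 (SD, n = 7) and 3.53 ± 1.19 (SD, n = 5), and the fitted differences from sgInert were 0.39 ± 0.64 and 0.03 ± 0.69 (SE). Within sgCebpa/b/d the unnumbered libraries had 27.2, 37.9 and 44.8 CPM and the MT libraries 2.90, 5.01, 6.26 and 4.24 CPM, a difference of 2.95 ± 0.65 (SE). Within sgLkb1 it was 1.46 ± 0.72 (SE), and 2.28 without replicate 4, while in sgInert ZR and MT libraries overlapped (0.46 ± 0.63 SE). Among MT libraries, sgCebpa/b/d lay below sgInert, at 10.02 to 14.2 CPM, without overlap (−1.29 ± 0.66 SE), the opposite direction to the value over all libraries. The immune marker sums stated above were highest in the same unnumbered libraries. There 10 of the 12 immune markers tested were called higher than in MT libraries of sgCebpa/b/d by edgeR, against 4.23% of all genes in either direction. In those MT libraries 12 of 20 immune markers, among them Fcer1g, Marco and S100a8, were at 0, so such markers could pass the filter only through other libraries. The part of immune cells in the Cxcl2 values was not tested. Its nearest genes were Gadd45g (r = 0.88, rho = 0.83) and Hecw2 (r = 0.86, rho = 0.77).

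Cxcl5, a neutrophil attractant made by alveolar type II cells, was low in sgCebpa/b/d and uneven in sgLkb1. The CPM was 0.699, 4.15 and 9.50 (lowest, median and highest) in sgInert, 0.169, 1.15 and 3.51 in sgCebpa/b/d, and 6.46, 2.20, 12.0, 19.96 and 0.728 in sgLkb1. The groups overlapped, and log2 CPM averaged 0.67 ± 0.96 (SD, n = 7) for sgCebpa/b/d, 1.96 ± 1.17 (SD, n = 7) for sgInert and 2.43 ± 1.73 (SD, n = 5) for sgLkb1. The difference between the targeted groups was −2.42 ± 0.68 (SE), and −1.79 without sgLkb1 replicate 4, and against sgInert it was −1.56 ± 0.65 (SE) in sgCebpa/b/d and 0.86 ± 0.65 (SE) in sgLkb1, the last 0.22 without sgLkb1 replicate 4. Among MT libraries the latter were −1.97 ± 0.88 and 0.92 ± 0.86 (SE). Unlike Cxcl2, Cxcl5 did not separate by series in sgCebpa/b/d (0.02 ± 0.93 SE), although the value was −1.38 without replicate 7. In sgLkb1 the series differed by −1.65 ± 1.01 (SE), with −3.94 without replicate 1, −0.96 without replicate 4 and −0.82 without replicate 5, and in sgInert by −0.80 ± 0.84 (SE). Mrpl38 (r = 0.76, rho = 0.70) was nearest.

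Cxcl16, whose membrane-anchored product is the ligand of CXCR6 on T cells, had the smallest spread. The CPM was 32.8, 35.7 and 39.2 (lowest, median and highest) in sgInert, 22.7, 26.8 and 34.0 in sgCebpa/b/d, and 51.6, 35.9, 41.1, 55.5 and 45.4 in sgLkb1. Every sgCebpa/b/d library lay below every sgLkb1 library, with sgInert between and overlapping both. For sgCebpa/b/d, sgInert and sgLkb1 in turn, log2 CPM averaged 4.77 ± 0.20 (SD, n = 7), 5.17 ± 0.10 (SD, n = 7) and 5.51 ± 0.25 (SD, n = 5). The fitted difference between the targeted groups was −0.75 ± 0.12 (SE), 1.69-fold, with −0.40 ± 0.12 and 0.36 ± 0.12 (SE) against sgInert. The differences between series were 0.24 ± 0.16 (SE) in sgCebpa/b/d, 0.13 ± 0.19 (SE) in sgLkb1 and −0.12 ± 0.16 (SE) in sgInert. Mtch2 (r = 0.87, rho = 0.84) and the antiprotease gene Slpi (r = 0.87, rho = 0.83) followed it most closely.

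Cx3cl1, which encodes fractalkine, was highest in sgCebpa/b/d. The CPM was 3.17, 6.56 and 12.6 (lowest, median and highest) in sgInert, 10.1, 12.2 and 18.9 in sgCebpa/b/d, and 5.08, 7.06, 10.2, 14.2 and 8.30 in sgLkb1, and the groups overlapped. Mean log2 CPM was 2.85 ± 0.67 (SD, n = 7), 3.78 ± 0.37 (SD, n = 7) and 3.13 ± 0.53 (SD, n = 5), of which sgInert and sgLkb1 differed by less than their spread. The fitted differences from sgInert were 0.88 ± 0.28 and 0.26 ± 0.31 (SE). Among MT libraries both targeted groups lay above sgInert without overlap (1.16 ± 0.38 and 0.94 ± 0.39 SE). The series differed by 0.38 ± 0.35 (SE) in sgCebpa/b/d, −0.66 ± 0.44 (SE) in sgLkb1 and 0.73 ± 0.38 (SE) in sgInert, and Apmap (r = 0.85, rho = 0.76) and St3gal4 (r = 0.85, rho = 0.80) were nearest.

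Cxcl14, a chemokine of epithelia and stroma, was low throughout. The counts were 0 to 11 in sgInert, 2 to 11 in sgCebpa/b/d and 32, 25, 4, 15 and 26 in sgLkb1. The mean log2 CPM of −0.16 ± 1.14 (SD, n = 7), 0.64 ± 0.34 (SD, n = 7) and 1.37 ± 0.98 (SD, n = 5) overlapped, with fitted differences from sgInert of 0.66 ± 0.66 and 1.72 ± 0.69 (SE). The 3 sgInert MT libraries held 2 counts in all and the 4 ZR libraries 26, a ratio of 11.9 after scaling (95% counting interval 2.98 to 104, exact binomial). MT sgLkb1 libraries held 44 counts, a ratio of 16.5 to the same 2 counts (4.30 to 140). MT sgCebpa/b/d libraries held 28, a ratio of 9.91 (2.50 to 85.8). The intervals pool the counts of libraries and cover counting error only, so the spread between libraries is left out. The scavenger receptor gene Colec12 (r = 0.87, rho = 0.71) and the fibroblast collagen gene Col1a2 (r = 0.86, rho = 0.84) were nearest. The fibroblast sums given with Ackr3 were lowest in the sgInert MT libraries as well, and the part of fibroblasts in the Cxcl14 values was not tested.

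Ccl20, the CCR6 ligand gene, was carried by single libraries. Of 60 counts in sgInert 53 were in replicate 5, and of 21 in sgCebpa/b/d 17 were in replicate 2, both MT. The sgLkb1 libraries held 0, 1, 3, 8 and 5 counts. All 3 unnumbered sgCebpa/b/d libraries were at 0, which allows up to 0.477 to 0.506 CPM in each.

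**Figure D3:**
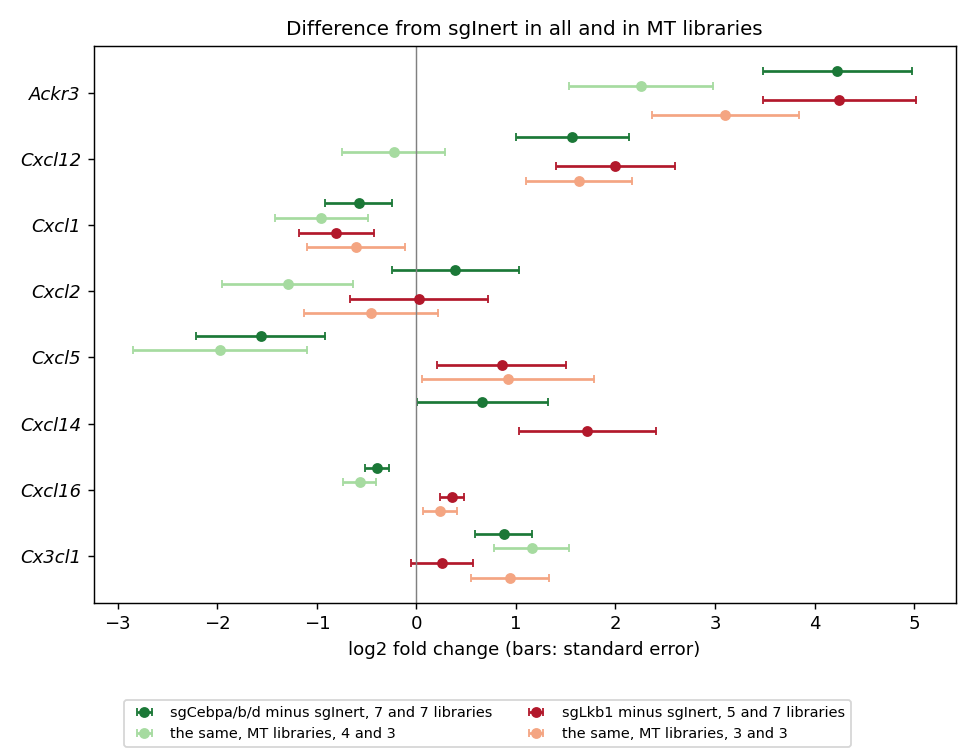
Log2 fold change against sgInert (x axis, with standard errors) of the 8 members that passed the filter, over all libraries and over MT libraries, with group sizes in the key; the MT values of Cxcl14 are not drawn because sgInert MT libraries held 2 counts. Ackr3 is at 4.23 and 4.25 over all libraries and at 2.26 and 3.10 over MT libraries, and Cxcl12 in sgCebpa/b/d moves from 1.57 to −0.23.

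A gene was called when its adjusted p was under 0.05 and its log2 fold change above 1 in size. Of the 8 members fitted, 1 was past these limits in sgCebpa/b/d against sgInert (Ackr3; 4.65% of all 13986 genes), 1 in sgLkb1 against sgInert (Ackr3; 3.01% of all genes) and 1 between the targeted groups (Cxcl5; 2.80% of all genes). By series, 3 members were past them in sgCebpa/b/d (Ackr3, Cxcl12 and Cxcl2; 4.23% of all genes), 0 in sgLkb1 (0.157% of all genes) and 0 in sgInert (1.23% of all genes). Among MT libraries 0 were past them in sgCebpa/b/d (3.16% of all genes) and 2 in sgLkb1 (Ackr3 and Cxcl14; 3.22% of all genes). Of the 9 members, libraries did not overlap for 1 in sgCebpa/b/d against sgInert (3.37% of all genes), 2 in sgLkb1 against sgInert (4.15%), 1 between the targeted groups (5.08%), 5 between the series of sgCebpa/b/d (22.2%), 6 in MT sgCebpa/b/d against MT sgInert (19.2%) and 4 in MT sgLkb1 against MT sgInert (23.3%). The members were chosen on these counts, so nothing is read from the shares.

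**Figure D4:**
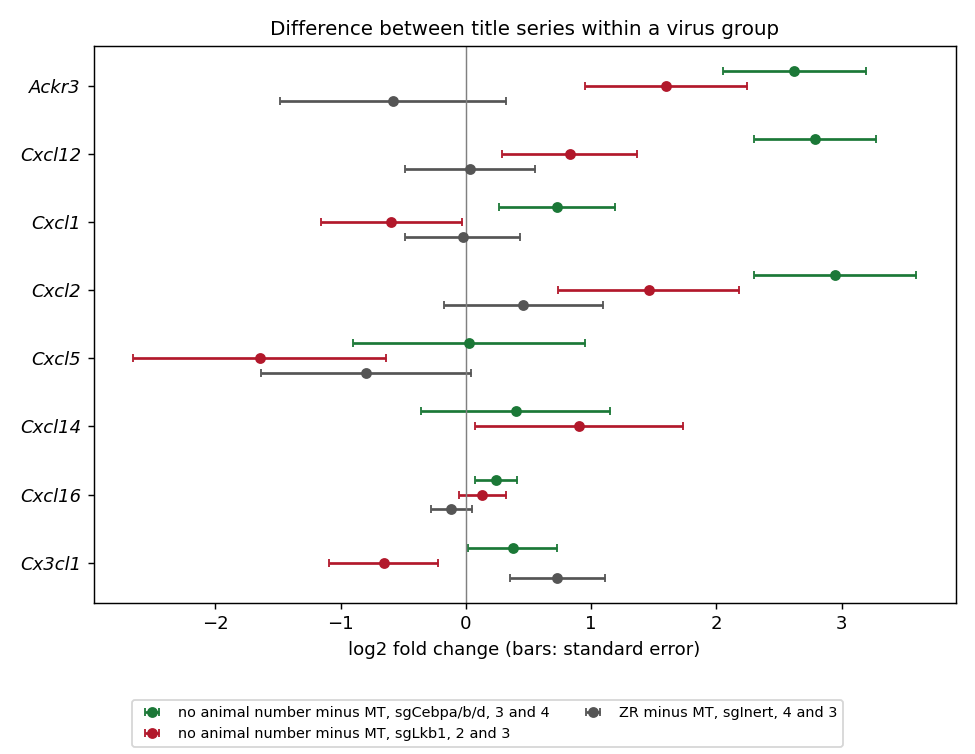
Log2 fold change (x axis, with standard errors) between title series within a virus group for the 8 members that passed the filter; the ZR minus MT value of Cxcl14 is not drawn because MT libraries held 2 counts. Ackr3, Cxcl12 and Cxcl2 lie at 2.62, 2.79 and 2.95 in sgCebpa/b/d, and Cxcl5 and Cxcl16 at 0.02 and 0.24.

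Among the other 30 ligand and 22 receptor genes, 16 of 52 were tested. Cxcl15, lungkine, a chemokine of lung epithelium, was called lower in both targeted groups: the counts had a median of 81675 in sgInert, 22072 in sgCebpa/b/d (−1.48 ± 0.24 SE, adjusted p = 0.000242, edgeR) and 48256 in sgLkb1 (−1.29 ± 0.27 SE, adjusted p = 0.00485, edgeR), and among MT libraries the values were −1.11 ± 0.13 and −1.22 ± 0.14 (SE). Cxcl17, a mucosal chemokine gene, was called lower in sgLkb1 (−1.50 ± 0.43 SE, adjusted p = 0.0387, edgeR). Its sgInert counts were 55 to 79 in ZR and 17 to 28 in MT libraries, leaving out any 1 of 9 libraries ended the call (largest adjusted p 0.11), and among MT libraries the value was −0.12 ± 0.42 (SE, adjusted p = 0.934, edgeR). In sgCebpa/b/d Cxcl17 was at −0.99 ± 0.38 (SE, adjusted p = 0.104, edgeR).

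Another 2 ligands were called in sgCebpa/b/d against sgInert. Cxcl3, of the same cluster as Cxcl5, was lower (−1.34 ± 0.42 SE, adjusted p = 0.048, edgeR), with 3 to 61 counts against 35 to 178, and leaving out any 1 of 12 libraries ended the call (largest adjusted p 0.10). Ccl11, the eosinophil attractant eotaxin, was higher (4.29 ± 1.01 SE, adjusted p = 0.00732, edgeR), with 0 to 74 counts against 0 to 3, and among MT libraries the value was 4.04 ± 1.45 (SE, adjusted p = 0.119, edgeR). In sgLkb1 Cxcl3 was at −0.57 ± 0.45 and Ccl11 at 1.96 ± 1.09 (SE, adjusted p = 0.557 and 0.357, edgeR). Between the targeted groups 0 of 16 were called by edgeR, with 2 at an unadjusted p under 0.05, 0 called by DESeq2 and 1 by limma. The medians over the 16 genes were −0.10 in sgCebpa/b/d and 0.04 in sgLkb1 against sgInert and 0.39 between the targeted groups, against 0.02, −0.01 and 0.03 over all genes.

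Between the series, genes called among the same 16 included leukocyte ligands, a monocyte receptor and epithelial ligands. In sgCebpa/b/d 4 of 16 were called between the series, against 4.23% of all genes in either direction (0.157% in sgLkb1 and 1.23% in sgInert). Ccl6 (272 to 394 counts without a number against 0 to 2 in MT libraries, adjusted p = 0.000295), Ccl9 (34 to 161 against 0 to 1, adjusted p = 0.00465) and the monocyte receptor gene Ccr2 (16 to 40 against 0 to 1, adjusted p = 0.00619) were higher. Cxcl15 was lower (−1.42 ± 0.14 SE, adjusted p = 5.92e-06, all edgeR). The filter kept Ccl6, Ccl9 and Ccr2 largely through libraries outside the MT series, where they were high, so their calls between series are a description only. In sgLkb1 Ccl6 was the 1 gene called (171 to 227 against 0 to 2 counts, adjusted p = 0.0211, edgeR), a call that leaving out any 1 of 7 libraries ended (largest adjusted p 0.139). In sgInert 2 were called higher in ZR libraries, Ccl6 (9 to 188 against 0 counts, adjusted p = 0.0113) and Cxcl17 (1.88 ± 0.40 SE, adjusted p = 0.018, edgeR). Leaving out sgInert replicate 5 ended both calls, with adjusted p up to 0.0753 and 0.103, and leaving out replicate 2 or 7 ended that of Cxcl17. The immune marker sums moved the same way as the genes called between series, except Cxcl15, which moved the other way. The part of immune cells was not tested. The medians over the 16 genes were 0.53, 0.88 and 0.74, against 0.02, −0.00 and 0.02 over all genes.

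Of 40 NF-kB pathway and inflammatory response genes, the known inducers of Cxcl1, Cxcl2 and Ccl20 and their fellow targets, 38 were tested. In sgCebpa/b/d against sgInert 3 were called. The alarmin gene Il33 (−1.36 ± 0.21 SE, adjusted p = 0.000127) and the prostaglandin synthase gene Ptgs2 (−2.08 ± 0.36 SE, adjusted p = 0.000471) were lower and Il1b was higher (4.44 ± 1.34 SE, adjusted p = 0.0366, edgeR). The Il1b counts were 70 to 156 in the unnumbered and 0 to 2 in the MT libraries, and among MT libraries the value was −1.23 ± 1.27 (SE, adjusted p = 0.714, edgeR). Leaving out sgInert replicate 1, 2, 3, 5 or 6 ended the Il1b call (largest adjusted p 0.0707). In sgLkb1 the cytokine gene Lif was the 1 gene called, and it was higher (1.85 ± 0.42 SE, adjusted p = 0.00919, edgeR). Between the targeted groups Il33 (−1.71 ± 0.22 SE, adjusted p = 4.12e-05), Il6 (−1.93 ± 0.43 SE, adjusted p = 0.00872) and the NF-kB inhibitor gene Nfkbie (−1.72 ± 0.42 SE, adjusted p = 0.015, edgeR) were lower in sgCebpa/b/d, the last not without sgLkb1 replicate 1 (adjusted p = 0.0706). The medians over the 38 genes were −0.08, 0.08 and −0.12, against 0.02, −0.01 and 0.03 over all genes. Between the series 6 of the 38 were called higher in unnumbered than in MT libraries of sgCebpa/b/d, 0 in sgLkb1 (3 at an unadjusted p under 0.05) and 1 in ZR libraries of sgInert by edgeR. Of all genes 4.23%, 0.157% and 1.23% were called in either direction in these comparisons. The filter kept Il1b largely through unnumbered libraries, where it was high.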

How the data were processed

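RNA from sorted tumor cells was made into libraries with the Trio RNA-Seq kit. The authors aligned reads to mm10 with STAR 2.6.1d and deposited estimated counts and TPM per gene from RSEM 1.2.30, which divides reads between similar genes. How strand was treated is not given in the sources used here. These counts (5.81% not whole) were rounded and fitted with edgeR 4.0.16 (R 4.3.3; TMM, filterByExpr, quasi-likelihood test, all 19 libraries in 1 model, Benjamini-Hochberg over 13986 genes). Title series were compared in a model with 1 mean for each of 6 virus and series combinations. TPM served levels between genes, and log2 CPM used a prior count of 2. The virus comparison was also run on simulated counts with known changes. These had a fixed dispersion and no title series or shared animals, so they do not test how the fits handle those. Members and gene lists were chosen with earlier results of these data known. Named list genes are those called plus Cxcl15, Cxcl17, Cxcr4, Cxcl3 and Mif, and for each member the 2 genes of highest Pearson r. An allele that all groups share and 1 gene near Cxcl5 are not reported here. Alternatives were RLE, DESeq2 1.42.0, limma 3.58.1 on log2(TPM + 1), no filter, covariates, a replicate block, subsets and leaving out each library. Titles share animal numbers in 2 sgInert, 3 sgCebpa/b/d and 2 sgLkb1 libraries, all of them MT. So n counts libraries, and p-values measure the spread between libraries, some of which share an animal number. Replicate libraries all differed beyond sampling noise. Promoters are RefSeq's (GRCm38.p6).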

Additional observations from a re-analysis of the deposited data

Results flagged for a closer look

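Cxcl1 and Cxcl2 had 1 sgInert library far below the other 6. In sgInert replicate 6 (ZR) Cxcl1 was at 3.30 log2 CPM (53 counts) against 5.40 to 6.69 in the others, and Cxcl2 at −0.55 log2 CPM (2 counts) against 3.37 to 4.85. Il6 was low in the same library, at 1.60 log2 CPM (15 counts) against 4.91 to 6.45. Leaving it out moved the Cxcl1 and Cxcl2 differences from sgInert by less than the spread between replicates. That spread includes this library (SD in sgInert 1.07 for Cxcl1 and 1.79 for Cxcl2), so the comparison could hardly show a larger move.

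A further 4 values, all of other genes, stood apart within their group. Cxcl3 was at −0.32 log2 CPM (3 counts) in sgCebpa/b/d replicate 5 against 2.22 to 3.41 in the other libraries. Grk5 was at 1.32 log2 CPM (6 counts) in sgCebpa/b/d replicate 1 against 2.56 to 3.43. Ccl9 was at 2.19 (16 counts) and Ccr2 at 0.94 (6 counts) log2 CPM in sgInert replicate 3, the sgInert library with the highest immune marker sum, 292 TPM, against at most −0.85 and −0.55 in the others. Each comes from a gap to the nearest library that is large beside the range of the group, a rule that picks about 1 in 20 groups by chance and was applied to 84 groups of values, of which 7 were picked.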

How the results depend on the processing

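Of 1214 values of member fold changes under other settings, 1188 moved by less than the spread between replicates and 26 moved further, and none past the call limits changed sign. Many of these settings leave out 1 library, which usually shifts a mean by only part of that spread, so the count is no measure of robustness. Ackr3 against sgInert ranged from 1.77 to 4.56 in sgCebpa/b/d and from 2.24 to 5.58 in sgLkb1 over 10 alternatives, lowest with limma on log2(TPM + 1), where low genes change less by construction. Cxcl12 in sgCebpa/b/d was at −0.25 in MT libraries only and at −0.29 without libraries that have no animal number, and Cxcl2 at −1.31 and −1.58.

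The counts of chemokine genes called were, in sgCebpa/b/d against sgInert (3), 1 with title series as a covariate, 1 without unnumbered libraries and 6 with DESeq2. In sgLkb1 (2) they were 6 with sex as a covariate and 1 with no filter, with title series as a covariate, without unnumbered libraries, with libraries of one animal summed and with the replicate block. Between the targeted groups (0) limma called 1. Between the series, no filter gave 11 in sgCebpa/b/d (4) and 2 in sgLkb1 (1). For the NF-kB list, adjusted p alone gave 7 in sgCebpa/b/d (3). In sgLkb1 (1) the count was 3 with sex as a covariate, 2 with the replicate block, DESeq2 or limma, and 0 without unnumbered libraries. Between the targeted groups (3) it was 5 with no filter, with title series, with limma or with adjusted p alone, and 1 with summed animals. The cause of these changes was not tested.

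Leaving out 1 library at a time gave 1 to 4, 1 to 2 and 0 to 0 chemokine genes in the virus comparisons (1 in sgCebpa/b/d without its replicate 6 or 7), 3 to 5, 0 to 1 and 0 to 2 in the series comparisons, and 2 to 4, 1 to 2 and 2 to 5 for the NF-kB list. Replicate numbers did not pair the libraries: deviations of same-numbered libraries correlated at −0.15 to 0.23 (median 0.02), and 3 of 19 libraries correlated best with their own number. With the replicate block all genes called numbered 610, 525 and 364, against 650, 421 and 391. No filter called 1108 against 592 and 215 against 22 genes between series in sgCebpa/b/d and sgLkb1, and 531 against 172 in sgInert. Adjusted p alone called 1412, 809 and 833 in the virus comparisons, 1143 and 299 between the series of sgCebpa/b/d and sgInert, and 838 and 725 among MT libraries (442 and 450), where no filter called 733 and 810. Sex as a covariate called 750 in sgLkb1, and 419 were called in sgCebpa/b/d without unnumbered libraries. Depth limits Ackr3 in sgInert (0 to 9 counts a library), Cxcl14 in sgInert and sgCebpa/b/d (0 to 11), Ccl20 outside 2 libraries (0 to 8) and Cxcr4 (0 to 15).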
